A study of Mus musculus with 8 samples.

Results

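The let-7 miRNAs and their relative miR-98 were examined in CD34+/CD105- cells of the mouse renal artery. The members were the assays named let-7a, let-7b, let-7c, let-7d, let-7e, let-7f, let-7g, let-7i and miR-98 once species prefix and catalogue number were removed, without the # rows that mark the other strand of a hairpin. This gave 9 of the 750 miRNA assays of the study, each a mouse assay and all on the same of 2 cards, which hold 375 miRNA assays each. The cells were freed from the artery with collagenase and sorted by flow cytometry, and miRNAs were measured by real-time PCR. The control group was 4 mice after sham surgery. The other group was 4 mice in which both renal arteries had been closed with microvascular clamps and blood flow had then been restored. The sources used here do not give the strain, the age, the sex, the length of ischemia or the time of reperfusion. The comparison addresses the miRNA profile of these cells after injury of the kidney by ischemia and reperfusion.

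The let-7 miRNAs rise as cells differentiate and hold down regulators of growth and the cell cycle, among them Ras, Myc and Hmga2. The RNA-binding protein LIN28 blocks the maturation of their precursors in stem cells and early progenitors. Several genes give the same or nearly the same mature miRNA, and let-7 miRNAs are generally abundant in differentiated tissue, vascular endothelium included.

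The mature sequences, from RefSeq on GRCm38.p6, are shown because the members share a seed and differ from each other at few bases. An assay has to tell them apart by these bases. Sequences run 5′ to 3′ and capitals mark the seed, bases 2 to 8.
let-7a: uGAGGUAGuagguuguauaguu
let-7b: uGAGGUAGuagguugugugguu
let-7c: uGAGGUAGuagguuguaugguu
let-7d: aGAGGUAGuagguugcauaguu
let-7e: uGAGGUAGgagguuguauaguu
let-7f: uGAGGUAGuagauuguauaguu
let-7g: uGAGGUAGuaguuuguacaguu
let-7i: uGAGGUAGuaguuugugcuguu
miR-98: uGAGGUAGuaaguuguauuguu

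A sequence was found for 9 of 9 members, at 11 genes, and 9 of 9 carried the seed GAGGUAG. These 11 do not include let-7a-2, a further let-7a gene on chromosome 9. With positions counted from 1 at the 5′ end, let-7c differed from let-7a by A19G alone, let-7e by U9G and let-7f by G12A. let-7b differed from let-7c by the single change G17A, read from let-7b to let-7c. let-7i was the most distant from let-7a, with 4 changes (G12U, A17G, U18C and A19U). Whether one assay also reads the RNA of another member was not tested.

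Mature let-7c is encoded at chr15:85706616-85706637 on the plus strand (Mirlet7c-2) and at chr16:77599672-77599693 on the plus strand (Mirlet7c-1), and its assay cannot tell these genes apart. let-7b lies beside the former, at chr15:85707325-85707346 on the plus strand, and the starts of the hairpins are 716 bases apart, both inside the long noncoding RNA gene Lncppara. let-7d lies at chr13:48536078-48536099 on the minus strand, with the hairpin starts of let-7f-1 and let-7a-1 at distances of 1817 and 2167 bases. let-7f-2 and miR-98 are neighbours on chromosome X, 868 bases apart, inside the gene Huwe1. let-7e lies on chromosome 17 inside Spaca6, let-7g on chromosome 9 inside Wdr82, and let-7i on chromosome 10 outside any gene of the table.

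The readout is the threshold cycle (Ct), the PCR cycle at which an assay crosses its threshold, so a lower Ct means more RNA. A well counted as detected below Ct 35. The samples differed in how much was measured: 75 to 163 miRNA assays were detected per sham mouse and 82 to 98 per ischemia/reperfusion mouse. The mean Ct over the 54 miRNAs found in every sample was 26.2, 28.4, 25.8 and 24.8 in the sham mice, in order of number, and between 27.7 and 28.1 after ischemia/reperfusion. Sham mouse 4 thus had the lowest Ct values and sham mouse 2 the highest, while the ischemia/reperfusion mice lay close together. Levels are therefore given as minus delta Ct, the deposited reference Ct of the sample and card minus the Ct, where higher means more RNA and 1 unit is a doubling if PCR is fully efficient. Both endothelial markers, miR-126-3p and miR-126-5p, were detected in every sample, and 0 of 3 erythroid markers in any. The summed level of the endothelial markers relative to the reference ranged from 0.0377 to 0.113 in sham mice and from 0.0181 to 0.0380 after ischemia/reperfusion. Among them, miR-126-3p differed by -1.59 ± 0.57 on the log2 scale (SE, 4 mice a group), with groups that did not overlap and a limma adjusted p of 0.228. Of the 72 miRNAs tested, 6.94% had groups without overlap on the lower side. The other marker, miR-126-5p, did not fall, at 0.11 ± 0.60 (SE, 4 mice a group, limma adjusted p of 0.892). The part of these markers in the let-7 levels was not tested. CD34 and CD105 themselves were not measured by these assays.

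Of the 9 members, let-7b and let-7c were detected in all 8 samples, let-7d in 7, let-7g in 4, and let-7e and let-7i in 2. let-7a, let-7f and miR-98 had no Ct in any sample, and the files do not show whether their RNA was absent or their assays gave no reading. By comparison, 35.7% of the 375 miRNA assays of this card were detected at least once and 34 were detected in all samples.

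let-7c, a let-7 miRNA expressed in many adult tissues, had the strongest signal of the family. In sham mice 1 to 4 its Ct was 22.2, 25.0, 22.1 and 19.8. After ischemia/reperfusion it was 24.1, 25.2, 23.6 and 24.2, again in order of mouse number. Its mean Ct over all samples, 23.3, was the lowest of the 34 assays of the card that were detected in every sample. Even in the weakest sample, ischemia/reperfusion mouse 2, let-7c crossed the threshold 9.76 cycles before the detection limit. On the same card, the assay for let-7a, which differs from let-7c by 1 base, gave no Ct in any of the 8 samples.

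let-7b had Ct values of 24.3, 27.8, 24.2 and 21.4 in the sham mice and 25.8, 26.4, 26.1 and 26.3 after ischemia/reperfusion. Its mean Ct of 25.3 was the sixth lowest among those 34 assays. For both miRNAs the sham Ct values spread more widely than those after ischemia/reperfusion. The SD of let-7b was 2.60 cycles in sham and 0.261 after ischemia/reperfusion, and that of let-7c was 2.16 and 0.685 (n = 4 per group). The deposited reference moved in the same order among the sham mice, at 20.7, 22.4, 19.0 and 17.9 cycles in sham mice 1 to 4.

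**Figure D1:**
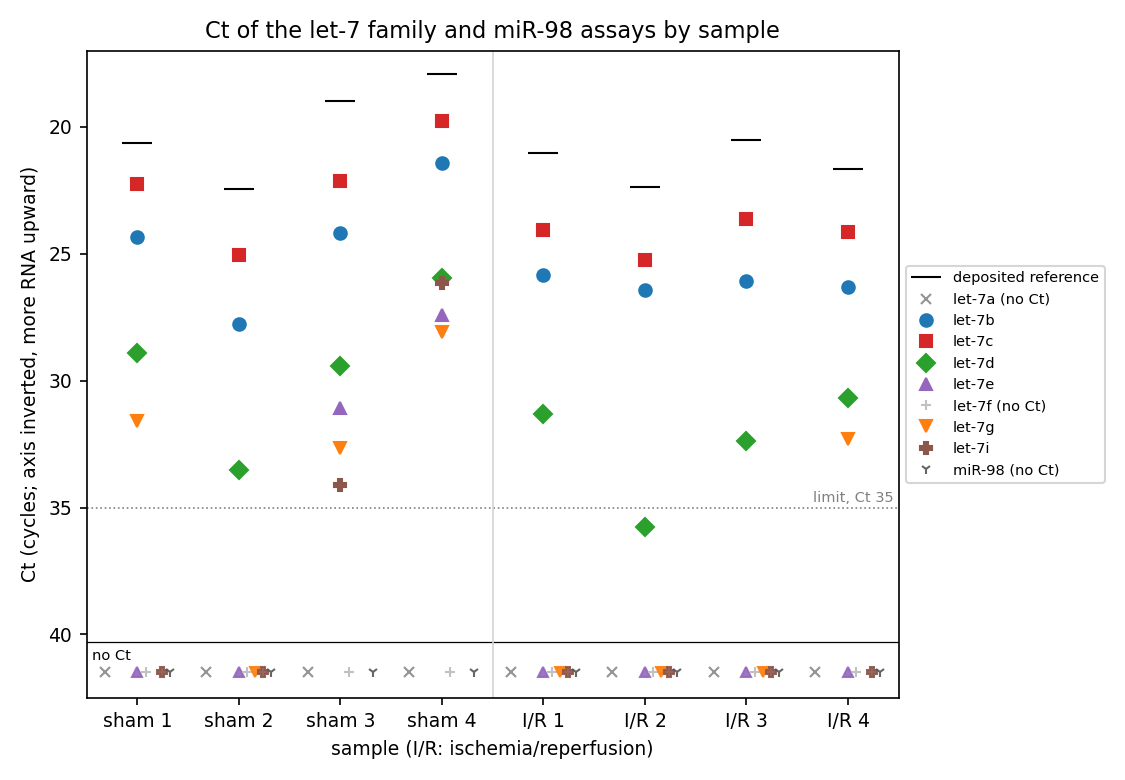
Ct of each member (vertical axis, cycles, inverted so that more RNA is higher) in each of the 8 samples (horizontal axis), with the deposited reference of the card as a short black line; symbols in the strip at the bottom are wells without a Ct and the dotted line is the limit of Ct 35. let-7c and let-7b sit at the top in every sample, let-7d lies several cycles lower, and let-7e and let-7i appear only in sham mice 3 and 4.

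let-7d, which is encoded in a cluster with let-7a-1 and let-7f-1, gave a weaker signal. Its Ct was 28.9, 33.5, 29.4 and 26.0 in the sham mice and 31.3, 35.8, 32.4 and 30.7 after ischemia/reperfusion. The value of 35.8, in ischemia/reperfusion mouse 2, lies past the limit and was left out of the test. The partners of its cluster, let-7a and let-7f, had no Ct in the samples where let-7d was read.

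The order of the signals was the same wherever all 3 were measured: let-7c before let-7b before let-7d. let-7b crossed the threshold 1.20 to 2.75 cycles after let-7c in the 8 samples, and let-7d crossed it 4.41 to 6.31 cycles after let-7b in 7 samples. Both distances exceeded their spread between mice, with an SD of at most 0.954 cycles in either group. Assays differ in efficiency, so these distances order the signals and are not ratios of molecules.

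let-7g, let-7e and let-7i were read mainly in sham mice. let-7g was detected at Ct 31.6, 32.7 and 28.1 in sham mice 1, 3 and 4, and at 32.3 in ischemia/reperfusion mouse 4. let-7e was detected at Ct 31.1 and 27.4, and let-7i at 34.1 and 26.1, in sham mice 3 and 4 only. The order of these weaker members changed between mice: let-7i had the highest Ct of the 6 members in sham mouse 3 and came just after let-7d in sham mouse 4. Between these 2 mice let-7i differed by 7.98 cycles, let-7g by 4.60 and let-7e by 3.68, beside 1.06 cycles for the reference. let-7i also had a repeated row with no Ct in any sample, as did the other 11 repeated assays of the study, and its values come from the row that was read.

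The 4 members detected in some samples only were each found in more sham than ischemia/reperfusion samples: let-7d in 4 and 3, let-7g in 3 and 1, let-7e in 2 and 0, and let-7i in 2 and 0. Among the 133 miRNA assays detected in 1 to 7 samples, 80.5% were found in more sham samples, so this direction is that of most such assays. No member passed Fisher's exact test of detection (two-sided, adjusted over the 133 assays; unadjusted p between 0.429 and 1), and 0% of the 133 passed it. With 4 mice a group, an assay detected in 2 samples, as let-7e and let-7i were, cannot reach an unadjusted p below 0.429. let-7d, missing in 1 sample only, gives the same p whichever sample that is. The test could therefore not have called these members. The smallest unadjusted p reached by any assay was 0.143, so 0 assays lay under 0.05 before adjustment. Per sample, 4, 3, 6 and 6 members were detected in the sham mice in order of number, beside 3, 2, 3 and 4 after ischemia/reperfusion.

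The detection limit differed between samples. On the minus delta Ct scale, Ct 35 corresponds to -17.06 in sham mouse 4 and to -12.56 in sham mouse 2, the deepest and the shallowest sample. The let-7e levels of sham mice 3 and 4, -12.09 and -9.47, lay above this limit in every sample, as did let-7g in sham mice 1 and 4 (-10.93 and -10.14) and let-7i in sham mouse 4 (-8.20). The let-7g level of sham mouse 3, -13.67, lay below the limit of sham mouse 2 and of ischemia/reperfusion mice 2 and 4, and the let-7i level of sham mouse 3, -15.12, below that of every sample but sham mice 3 and 4. A level as low as these 2 would not be detectable in those samples.

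Sham mice 3 and 4, where let-7e and let-7i were read, also had the most detected assays, 142 and 163, and 14 of the 750 miRNA assays were detected in these 2 samples alone. The tubule miRNA miR-194 was another of these, at Ct 20.5 and 23.7. Other epithelial and kidney tubule markers did not share this pattern. miR-192 was detected in sham mouse 4 alone, and miR-203 and miR-204 also in sham mouse 1 and ischemia/reperfusion mice 2 and 3. Of the 8 epithelial and kidney tubule markers, 0 to 4 were detected per sham mouse and 0 to 2 per ischemia/reperfusion mouse, with miR-200a, miR-200b, miR-200c and miR-141 in none. Their summed level relative to the reference ranged from 0 to 0.363 in sham mice, highest in sham mouse 3, and from 0 to 0.0923 after ischemia/reperfusion. In sham mouse 3 most of that sum was miR-194, at Ct 20.5 beside 27.6 for miR-203 and 29.8 for miR-204. The part of these markers' cells, or of the number of detected assays, in the detection of let-7e and let-7i was not tested. In sorted bulk samples like these, fewer cells of a type and less RNA per cell cannot be told apart.

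let-7b, let-7c and let-7d met the filter, detection in 3 or more mice per group, and entered the test over 72 miRNAs, which none of the 3 passed. For let-7c the level was -1.59, -2.59, -3.13 and -1.83 in the sham mice and -3.06, -2.87, -3.10 and -2.48 after ischemia/reperfusion. All 4 ischemia/reperfusion values lay below the sham mean, but sham mice 2 and 3 overlapped with them. The means were -2.29 ± 0.707 and -2.88 ± 0.282 (SD, n = 4 per group), a log2 difference of -0.59 ± 0.56 (SE), with a 95% interval from -1.86 to 0.68 and a limma adjusted p of 0.587.

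For let-7b the level was -3.67, -5.34, -5.19 and -3.49 in the sham mice and -4.83, -4.07, -5.53 and -4.62 after ischemia/reperfusion. The groups overlapped: sham mice 1 and 4 lay above every ischemia/reperfusion value, and sham mice 2 and 3 lay below 3 of the 4. The means were -4.42 ± 0.976 and -4.76 ± 0.606 (SD, n = 4 per group), a log2 difference of -0.34 ± 0.66 (SE), with a 95% interval from -1.85 to 1.16 and a limma adjusted p of 0.743. Without sham mouse 4 the log2 difference was -0.031, without sham mouse 1 it was -0.091, and without ischemia/reperfusion mouse 3 it was -0.084.

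For let-7d the level was -8.25, -11.07, -10.42 and -8.04 in the sham mice and -10.30, -11.85 and -9.03 in ischemia/reperfusion mice 1, 3 and 4. These values overlapped as well, with 2 of 3 ischemia/reperfusion values between the lowest and the highest sham value. The log2 difference was -0.95 ± 1.05 (SE, from 4 sham and 3 ischemia/reperfusion values), with a 95% interval from -3.39 to 1.49 and a limma adjusted p of 0.626. With the well past the limit, at -13.41 in ischemia/reperfusion mouse 2, kept at its Ct, it was -1.70 ± 1.13, and without ischemia/reperfusion mouse 3 it was -0.22.

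**Figure D2:**
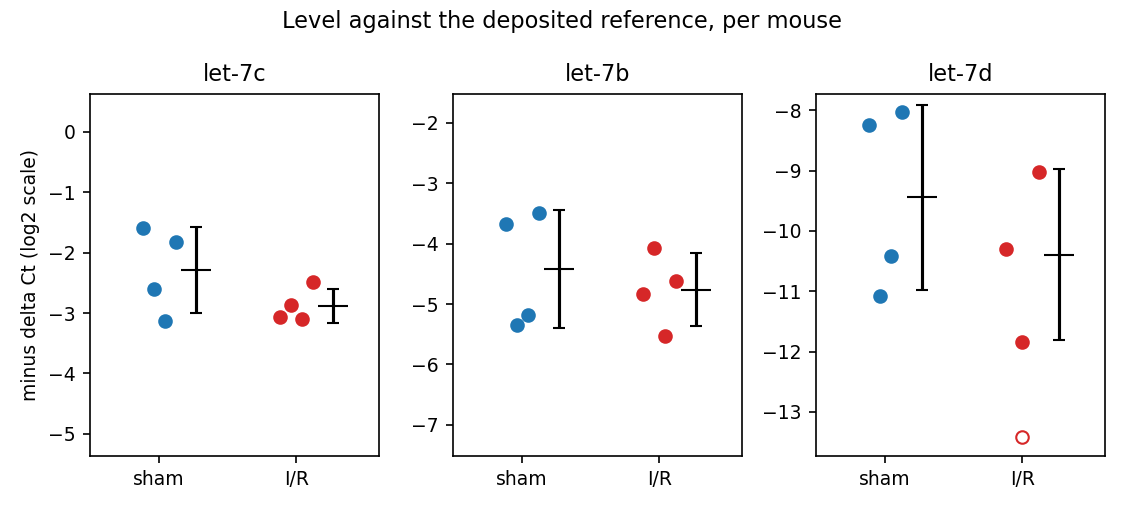
Level of let-7c, let-7b and let-7d as minus delta Ct (vertical axis, log2 scale, each panel spanning the same number of units) per mouse in the sham and ischemia/reperfusion (I/R) groups; black bars are the mean ± SD of detected values and the open circle is the let-7d well at Ct 35.8, left out of mean and test. The groups overlap for each miRNA, and let-7c after ischemia/reperfusion has the narrowest spread, with an SD of 0.282.

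By limma with Benjamini-Hochberg adjustment over all 72 tested miRNAs, 0 of the 3 members passed 0.05, where 0% of the 72 did. At an unadjusted p under 0.05, limma gave 0 of the 3, beside 13.9% of the 72 lower and 0% higher. In 0 of the 3 members were the groups without overlap, against 6.94% of the 72 on the lower side. All 3 differences were below 0 against the deposited reference, as were 68.1% of the 72. The exact permutation test (two-sided, 70 assignments) gave an unadjusted p of 0.543 for let-7b and 0.257 for let-7c, where the smallest possible is 0.0286. For let-7d, with 4 and 3 values, it gave an unadjusted p of 0.400, where the smallest possible is 0.0571, so it could not have called let-7d. After adjustment this test called 0 of the 72, and before it 2, none of them a member. With so few mice, an adjusted p under 0.05 would need many miRNAs at the smallest possible p at once.

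The members were in the middle of the tested range. The median of the 3 members was -0.59 and that of the 72 was -0.80. In order from the lowest difference, let-7d stood at place 32, let-7c at 39 and let-7b at 45 of 72. The SE of the let-7c difference stood at place 3 of 72 from the smallest, where the median was 0.875. Its SD stood at place 3 after ischemia/reperfusion, but at place 15 in sham.

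**Figure D3:**
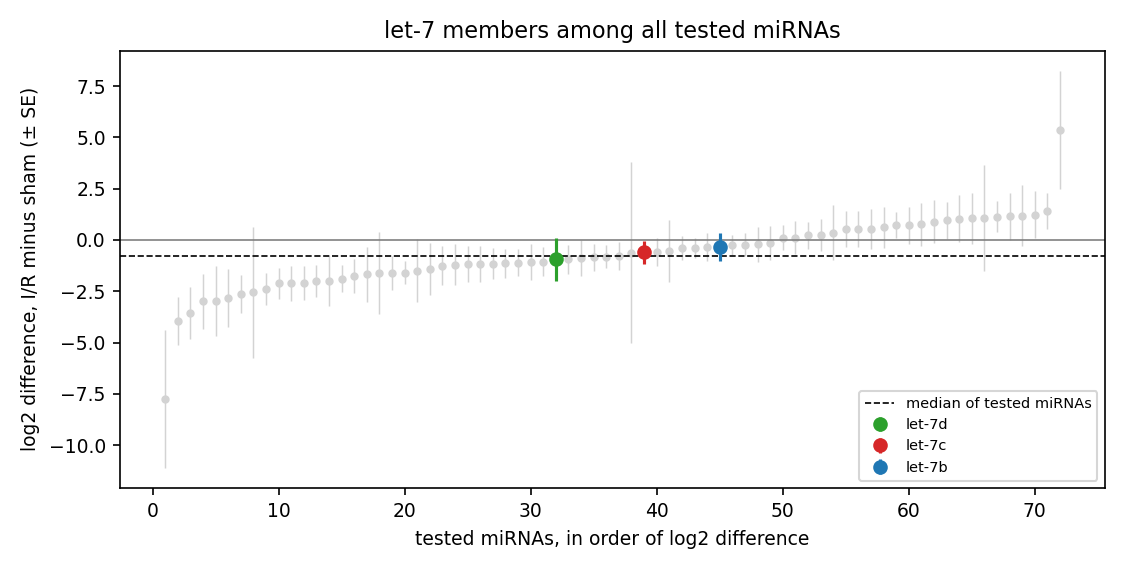
Log2 difference, ischemia/reperfusion (I/R) minus sham, with its SE (vertical axis) for the 72 tested miRNAs in order of the difference (horizontal axis), with the 3 let-7 members in colour and the median of all as a dashed line. let-7d, let-7c and let-7b lie in the middle of the order, at places 32, 39 and 45, with small errors for let-7c and let-7b.

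The direction of the 3 members depended on the reference. With the mean Ct of the card's miRNAs below Ct 35 in all 8 mice as reference, which includes let-7b and let-7c, the log2 difference was 0.066 ± 0.58 for let-7c, 0.32 ± 0.62 for let-7b and 0.030 ± 1.04 for let-7d (SE). Against the control assays it was -0.85 ± 0.68, -0.60 ± 0.77 and -1.33 ± 1.09 (SE), and without normalization it was -1.98 ± 1.10, -1.73 ± 1.22 and -2.01 ± 1.63 (SE). The control assays here were those below Ct 35 in all 8 samples, snoRNA135 on the let-7 card and snoRNA202 on the other card, without Y1. The median of the 72 miRNAs moved too, from -0.80 to -0.31, -0.80 and -1.93. Relative to that median, let-7b was higher by 0.46, 0.63, 0.20 and 0.20 under these 4 scalings, let-7c lay between -0.049 and 0.38, and let-7d between -0.53 and 0.34. The control reference and no normalization differ only by a value per sample common to all miRNAs, so the equal values of 0.20 are not independent. The lowest limma adjusted p of any of the 3 under these scalings was 0.253, for let-7c without normalization.

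**Figure D4:**
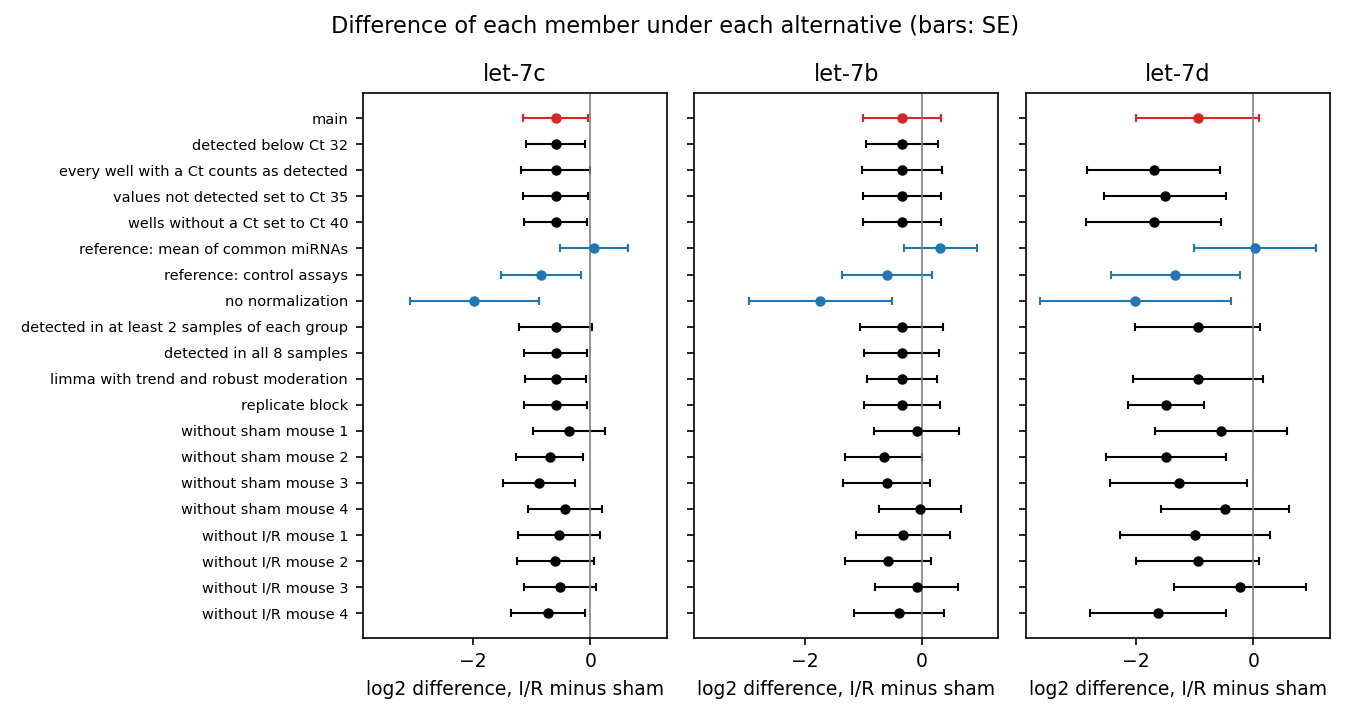
Log2 difference, ischemia/reperfusion (I/R) minus sham, with its SE (horizontal axis) for let-7c, let-7b and let-7d under each setting (vertical axis), the main setting in red and the other scalings in blue. Against the mean of commonly detected miRNAs the points move to 0.066, 0.32 and 0.030, on the higher side of 0; let-7d has no value below Ct 32 or with detection in all 8 samples.

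Distances between members of the same sample and card need no reference. let-7b lay 2.08, 2.75, 2.06 and 1.66 cycles behind let-7c in sham mice 1 to 4, and 1.77, 1.20, 2.43 and 2.14 cycles after ischemia/reperfusion. The mean distance was 2.14 ± 0.449 and 1.88 ± 0.530 cycles (SD, n = 4 per group), so the ranges overlapped and the change of -0.25 cycles was smaller than either SD (exact permutation p = 0.514). let-7d lay 7.16 ± 0.985 cycles behind let-7c in sham (n = 4) and 7.51 ± 1.12 after ischemia/reperfusion (SD, n = 3; exact permutation p = 0.629). Behind let-7b it lay 5.02 ± 0.569 and 5.40 ± 0.954 cycles (SD, n = 4 and 3; exact permutation p = 0.571). With 4 and 3 values the smallest possible exact permutation p is 0.0571, so the test could not have called the pairs with let-7d. These 3 pairs were the only ones compared, and none changed by more than the spread between mice.

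**Figure D5:**
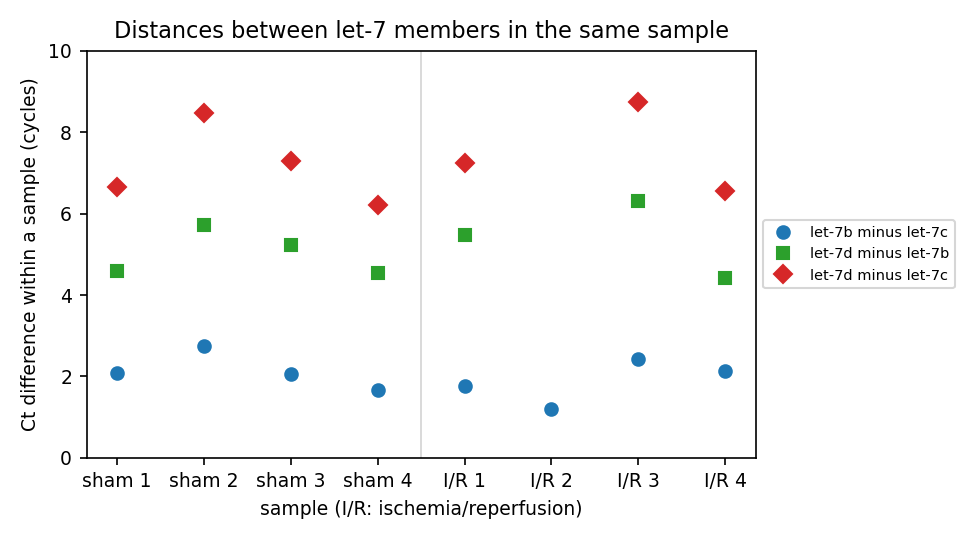
Ct distance between let-7 members read in the same sample (vertical axis, cycles) for each of the 8 samples (horizontal axis; I/R, ischemia/reperfusion). let-7b stays 1.20 to 2.75 cycles behind let-7c in every sample, and let-7d, absent here for ischemia/reperfusion mouse 2, lies 4.41 to 6.31 cycles behind let-7b.

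A fold of ischemia/reperfusion over sham stands in the authors' deposited table for 4 members. In the authors' deposited table let-7b is at 0.789, let-7c at 0.663 and let-7d at 0.307, the last with the well at Ct 35.8 included. For let-7g the authors' deposited table gives 1.93, which rests on 3 sham wells and 1 ischemia/reperfusion well, while let-7g was detected in fewer ischemia/reperfusion than sham samples. The remaining 5 members have no fold there, since at least 1 group had no Ct.

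Several let-7 genes are transcribed with members of the miR-99 and miR-125 families: let-7c-1 with miR-99a, whose hairpin starts 721 bases away, let-7e with miR-125a, 460 bases away, and miR-99b, and let-7a-2 with miR-100, 5291 bases away. Of 5 such partners, 4 were tested and 0 passed the limma threshold in either direction, where 0% of the 72 tested miRNAs did. At an unadjusted p under 0.05, limma gave 0 of the 4, beside 13.9% of the 72 lower and 0% higher. The differences of 3 of the 4 were below 0, as were 68.1% of the 72. miR-99b was at -2.83 ± 1.40, miR-100 at -1.99 ± 1.22 and miR-125a-5p at -1.13 ± 0.70 (SE of the log2 difference; 3 sham and 4 ischemia/reperfusion values for miR-99b and miR-100, 4 and 3 for miR-125a-5p). miR-125b-5p, a miRNA of many adult tissues, was at 0.24 ± 0.77 (SE, n = 4 per group). The limma adjusted p of these 4 lay between 0.401 and 0.835.

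Gene neighbours were not read alike. let-7e was detected in 2 samples, while its neighbour miR-125a-5p was detected in 4 sham and 3 ischemia/reperfusion samples and miR-99b in 3 and 4. let-7a had no Ct, while miR-100, beside let-7a-2, was detected in 3 sham and 4 ischemia/reperfusion samples, at Ct 26.4 to 32.8. let-7c was read in all samples, and miR-99a, beside let-7c-1, in sham mice 1, 3 and 4 and ischemia/reperfusion mice 2 and 3. let-7b and let-7c, neighbours on chromosome 15, were both read in all 8 samples, though the let-7c assay may also read RNA of the chromosome 16 gene. let-7f, which has genes on chromosomes 13 and X, and miR-98, beside the latter, had no Ct in any sample.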

How the data were processed

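Each of the 8 samples was taken as 1 mouse, as the labels number them; p-values measure the spread between these samples. The deposited Ct values come from a 7900HT Fast real-time PCR system after mirVana RNA isolation, per the labels' protocols; the sources used here name neither software nor reference RNA. The deposited delta Ct values, on a log2 scale, equal the Ct minus 1 reference value per sample and card. The authors computed the deposited fold as a ratio from mean delta Ct values, per the file headers. In 13 wells, 0 of them of a member, a delta Ct stood without a Ct, and these were treated as missing.

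Repeated rows of an assay were averaged over wells with a Ct. miRNAs detected below Ct 35 in at least 3 samples of each group entered a limma fit (version 3.58.1, R 4.3.3; lmFit, then eBayes), with values not detected missing. Tests were two-sided, and p-values were adjusted by Benjamini-Hochberg with a threshold of 0.05. Single values were compared with exact permutation tests (scipy 1.17.1). The fit was tested on simulated data. Sequences and neighbours come from RefSeq on GRCm38.p6; the deposited files name no build. Intervals come from the limma fit, and the sources used here do not give the number of wells per value.

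The rule for named miRNAs took all members, 5 cluster partners, other assays with the let-7 seed, the 3 miRNAs nearest to each member detected in all samples, and the control assays. The members and lists were chosen with earlier results of these data known. Markers of 8 cell types were listed. The alternatives were other detection limits, values for missing wells, references, filters, moderation, an exact test, a block by mouse number and leaving out each mouse.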

Additional observations from a re-analysis of the deposited data

How the results depend on the processing

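With commonly detected miRNAs as reference, the log2 differences turned to 0.32 (let-7b), 0.066 (let-7c) and 0.030 (let-7d), and the median of the 72 tested miRNAs moved from -0.80 to -0.31. No other alternative turned a member's log2 difference, and none gave a member an adjusted p under 0.05. Leaving out each mouse gave -0.65 to -0.031 for let-7b, -0.87 to -0.36 for let-7c and -1.63 to -0.22 for let-7d. The number of miRNAs past the threshold, 0, was 1 with every Ct counted as detected and 0 to 1 when each mouse was left out (1 without sham mouse 1 or sham mouse 2); no member was among them. The detection difference of let-7d was 0 percentage points with every Ct counted, and between -33.3 and 0 when each mouse was left out. When each mouse was left out, the change in the distance from let-7d to let-7c ranged from -0.26 to 0.84 cycles, and from let-7d to let-7b from -0.081 to 0.87 cycles, the lowest in both without ischemia/reperfusion mouse 3; the cause was not tested. With every Ct counted as detected these changes were 1.11 and 1.36 cycles, and with undetected values set to Ct 35 they were 0.92 and 1.17 cycles. No pairing by mouse number was seen: the correlation of deviations between same-numbered mice lay between -0.38 and 0.02, and 0 of 8 samples were closest to their own number. Between mice of different number it lay between -0.26 and 0.55, and so few correlations cannot exclude a pairing. With mouse number as a replicate block the count was 0, and the log2 differences were -0.34 for let-7b, -0.59 for let-7c and -1.49 for let-7d, whose block drops sham mouse 2. The log2 difference of let-7d could not be fitted with detection below Ct 32 or in all samples, since let-7d then missed the filter. Detection of let-7e, let-7g and let-7i was the same with every Ct counted as detected.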

Other observations

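The miRNAs whose level most resembled that of let-7b and let-7c over the 8 samples were sought among the other 53 miRNAs detected in all samples, by the root mean square difference in minus delta Ct after each miRNA's own mean was subtracted. For let-7b the nearest was let-7c, at 0.443 cycles, followed by miR-30c at 0.616 and miR-2134 at 0.628, where the median of the 53 was 1.24 cycles. For let-7c the nearest was miR-24, at 0.433 cycles, followed by let-7b at 0.443 and miR-2134 at 0.487, where the median was 1.20. These values share the reference of the sample, and on 1 card for all but miR-2134, so they describe likeness in these 8 samples only.

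A further assay carried the let-7 seed outside the family names, miR-1961 (17 bases: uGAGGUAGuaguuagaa), from chr5:92788465-92788481 on the minus strand. It had a Ct in 0 of 8 samples. Of the 8 assays for the other strand of let-7 hairpins, marked with #, 0 had a Ct in any sample. Among the control assays, snoRNA202 was read at Ct 21.8 to 26.4 in sham and 24.2 to 25.7 after ischemia/reperfusion, and snoRNA135 on the card of the let-7 assays at 26.6 to 31.7 and 29.6 to 32.7. On the same card Y1 was read at 27.7 to 35.9 and 31.7 to 34.8, and the plant control miR159a had no Ct in any sample.

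The other marker lists were detected as follows per sample. Of the 4 leukocyte markers, 2 to 3 were detected in sham and 2 to 3 after ischemia/reperfusion, of the 2 smooth muscle markers 1 to 2 in both groups, and of the 3 fibroblast and mesenchymal markers 2 in every sample. Striated muscle markers numbered 1 to 2 in sham and 0 to 1 after ischemia/reperfusion, and neural markers 0 to 1 and 0. Similar counts did not mean similar levels. The summed level of the smooth muscle markers ranged from 0.000309 to 0.00300 in sham and from 0.000254 to 0.000684 after ischemia/reperfusion. For the fibroblast and mesenchymal markers it was 0.00466 to 0.0317 and 0.00487 to 0.0116, and for the leukocyte markers 0.00165 to 0.0193 and 0.00123 to 0.0523. The ranges overlapped in each of these lists. The part of these cell types in the let-7 levels was not tested.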
